A study of Mus musculus with 78 samples.

Results

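The constitutive androstane receptor CAR (NR1I3), the pregnane X receptor PXR (NR1I2) and 8 cytochrome P450 genes of the CYP2 and CYP3 families were followed in mouse liver. The 10 genes were taken by name from the symbols of the TempO-Seq panel, as receptors and as P450 genes known as their targets. This choice was made with earlier results of these data known. The members are 10 of 2755 genes on the panel, and all 10 are among the 2205 genes that were tested. Male B6C3F1 mice, 4 weeks old at the start, drank water with 3.5 g/L dichloroacetic acid (DCA) for a set time or for the whole study, and controls of the same strain, sex and age received none. Livers had been archived as formalin-fixed paraffin blocks, and each library came from 1 mouse. DCA was given for 10 weeks in S1, with livers taken at week 10 (S1-10, n = 6), 32 (S1-32, n = 6), 57 (S1-57, n = 6) and 78 (S1-78, n = 6). It was given for 32 weeks in S2 (S2-32, n = 6, and S2-78, n = 4), for 57 weeks in S3 (S3-57, n = 5, and S3-78, n = 4) and for 78 weeks in Direct-78 (n = 3). Control-10 (n = 4), Control-32 (n = 6), Control-57 (n = 6) and Control-78 (n = 6) were the controls of the same weeks.

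These 68 libraries are the ones the authors kept of 78. Total counts ran from 541245 to 4285848, with a median of 2162678. Direct-78 had 541245 to 699825 counts against 2098777 to 4285848 in Control-78, and S1-32, S3-57 and S3-78 also did not overlap their controls in total count, so depth and treatment cannot be told apart in these 4 groups. Some kept libraries stood apart from their groups. Mouse 68 of Control-10 had 10460 CPM summed over 10 hepatocyte markers, against 47340 to 48670 in the other 3 libraries of its group, and 309.7 CPM summed over 6 periportal markers, against 9317 to 14740. Mouse 41 of S2-32 had 22040 CPM summed over the hepatocyte markers, against 56580 to 87200 in the other 5 libraries, and 1156 CPM summed over 9 stellate and fibroblast markers, against 443.4 to 723.1. Mouse 31 of S1-78, mouse 27 of S1-57, mouse 47 of S2-78 and mouse 59 of S3-78 had 2365, 2140, 3990 and 1944 CPM summed over 9 pericentral markers, where the control libraries had 8691 to 35710. Mice 51 and 54 of S3-57 and mice 64 and 66 of Direct-78, at 5545 to 8058 CPM, were also below all controls. Pancreas acinar markers summed to 24170 CPM in mouse 36 of S1-78, 14910 in mouse 47 of S2-78, 4892 in mouse 17 of S1-10 and 2719 in mouse 19 of S1-32.

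CAR and PXR are nuclear receptors of the hepatocyte that sense drugs, bile acids and other foreign or endogenous compounds. Each pairs with the retinoid X receptor and binds response elements near genes of oxidation, conjugation and transport, of which CYP2B10 is the textbook target of CAR and CYP3A11 that of PXR. The P450 enzymes that these genes encode sit in the endoplasmic reticulum and add oxygen to lipophilic compounds, and several of them are more abundant around the central vein of the liver lobule than around the portal tract.

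In TempO-Seq, detector oligos joined on a target transcript are sequenced, so a count is assigned to the probed gene. Levels are given as CPM, counts scaled by each library's TMM-adjusted total, and are not compared between genes, because probes differ in yield. The changes are log2 fold changes from edgeR's quasi-likelihood test over all 13 groups, 2-sided, with Benjamini-Hochberg adjustment over the 2205 genes of a comparison. A gene passed at an adjusted p of 0.05 or less with a fold change beyond 1.5. In bulk samples, fewer cells of a type and less RNA per cell cannot be told apart.

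Positions are given on GRCm38 from the GENCODE annotation, all as protein-coding genes. NR1I2 lies on chr16:38248323-38294824 on the minus strand and NR1I3 on chr1:171213970-171220701 on the plus strand. CYP2A5 (chr7:26835305-26843548) and CYP2B10 (chr7:25897620-25926624) share a chromosome and the plus strand. CYP3A11 is on chr5:145854426-145879964, minus strand. The 5 CYP2C genes lie on chromosome 19, in the order CYP2C55 (chr19:39007019-39042693, plus), CYP2C29 (chr19:39269405-39330713, plus), CYP2C38 (chr19:39389556-39463075, minus), CYP2C39 (chr19:39510862-39568529, plus) and CYP2C54 (chr19:40037940-40073827, minus). CYP2C38 and CYP2C39 are 47786 bp apart.

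Near-identical copies can limit what a probe can tell apart. Of all windows of 50 bases in the longest coding transcript of CYP2A5, 40.8% also occur in a transcript of another gene, most often Cyp2a4. The share was 25.7% for CYP2C54 (most often Cyp2c50), 14.8% for CYP3A11 (Cyp3a41a), 12% for CYP2C39 and 7.45% for CYP2C38 (each most often the other), 9.69% for CYP2B10 (Cyp2b13), 2.08% for CYP2C29 and 0.514% for CYP2C55. No window of NR1I2 or NR1I3 was shared. The probe sequences were not used here, so whether a probe lies in a shared window is not known.

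CYP2C38, CYP2C39 and CYP2C29 are neighbours, of which CYP2C38 and CYP2C39 were higher and CYP2C29 lower in Direct-78 in the results that follow, and their promoters are shown for that reason. The sequences are those of RefSeq on GRCm38.p6, from 250 bases before to 50 after a start site, and 9 of the 10 genes had an entry. CYP2C54 had none. For CYP2C39, which has 2 entries, the one at the annotated start of the gene is printed. The windows are chr19:39463026-39463325 on the minus strand for CYP2C38, chr19:39510572-39510871 on the plus strand for CYP2C39, and chr19:39286835-39287134 on the plus strand for CYP2C29, which lies inside the annotated gene. Capitals mark the letters searched for on either strand, which were TATAAA of a TATA box, AGGTCA as a half-site of nuclear receptors, its variant AGTTCA and, for the factor HNF1, GTTAAT, and no matches overlap here.
CYP2C38: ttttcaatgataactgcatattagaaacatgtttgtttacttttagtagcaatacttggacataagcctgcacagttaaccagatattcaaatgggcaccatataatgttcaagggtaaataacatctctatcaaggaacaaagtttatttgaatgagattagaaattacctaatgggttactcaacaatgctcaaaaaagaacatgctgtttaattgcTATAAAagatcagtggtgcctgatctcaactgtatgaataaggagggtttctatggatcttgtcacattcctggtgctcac
CYP2C39: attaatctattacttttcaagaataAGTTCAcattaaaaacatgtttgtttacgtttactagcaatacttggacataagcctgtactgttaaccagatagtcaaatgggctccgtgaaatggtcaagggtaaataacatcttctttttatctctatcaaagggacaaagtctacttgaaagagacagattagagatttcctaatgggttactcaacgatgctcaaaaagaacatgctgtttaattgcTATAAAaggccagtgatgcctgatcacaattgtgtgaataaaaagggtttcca
CYP2C29: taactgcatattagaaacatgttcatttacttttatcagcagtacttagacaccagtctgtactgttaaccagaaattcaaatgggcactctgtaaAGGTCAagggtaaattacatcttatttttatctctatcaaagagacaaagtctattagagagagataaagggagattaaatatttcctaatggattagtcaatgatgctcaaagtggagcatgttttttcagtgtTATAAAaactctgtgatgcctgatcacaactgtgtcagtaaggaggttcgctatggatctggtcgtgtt
TATAAA occurred in all 3 windows printed, AGGTCA in that of CYP2C29 and AGTTCA in that of CYP2C39, while GTTAAT occurred in none of them. The other entry of CYP2C39, chr19:39347096-39347395 on the plus strand, held AGGTCA but none of the other letters searched for. Of 32851 mouse promoter windows of this length, 13.6% held TATAAA, 16.3% AGGTCA, 14% AGTTCA and 7.1% GTTAAT. In global alignments, CYP2C38 and CYP2C39 had 73.6% identical columns, CYP2C38 and CYP2C29 71.1%, and CYP2C39 and CYP2C29 70.6%. A match of letters is a description of the window.

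The first set of comparisons asks which of the genes differed from controls of the same week, at the end of dosing and after it was stopped. In S1-10, 3 members passed the test, CYP2A5, CYP2C38 and CYP3A11, all lower, where 5.49% of all genes passed. None passed in S1-32, where 29.1% of all genes did, although 3 members had an unadjusted p under 0.05 and DESeq2 called 3, CYP2A5, CYP2C38 and CYP2C54. Of all 2205 genes, 933 had an unadjusted p under 0.05 in S1-32 and DESeq2 called 847. Without mouse 19 of S1-32 CYP2A5 passed there (adjusted p = 0.0354), and without mouse 74 or 77 of Control-32 CYP2C54 did (0.0268 and 0.0437). No member passed in S1-57 (1.59% of all genes) or S1-78 (1.81%), with 0 and 1 members at an unadjusted p under 0.05 and 0 called by DESeq2 in either. Of all genes, 293 and 299 had an unadjusted p under 0.05 in these groups, and DESeq2 called 106 and 85. NR1I2 was the 1 member that passed in S2-32 (10.7% of all genes), and it was higher. CYP3A11 also passed there without mouse 74 of Control-32 (adjusted p = 0.00446). CYP3A11 was the 1 member in S2-78 (1.63% of all genes), also higher. In S3-57, 0 members passed (6.39% of all genes), with 1 at an unadjusted p under 0.05 and 0 in DESeq2, where the numbers of all genes were 424 and 222. In S3-78, 1 member passed, CYP2C38, which was higher, where 13.3% of all genes passed. In Direct-78, 3 members passed, with CYP2C38 and CYP2C39 higher and CYP2C29 lower, where 24.4% of all genes passed. NR1I3, CYP2B10, CYP2C54 and CYP2C55 passed in none of the 9 comparisons with edgeR. The 2 groups did not overlap in CPM for 14.9% of all genes in S1-10, 2.72% in S2-32, 12.9% in S3-78 and 19% in Direct-78. Among members that held for 5, 1, 2 and 4. In S1-32 it was 10% of all genes and 0 members. Control-57 and Control-78 minus Control-10 had 5.8% and 1 member, and 7.48% and 2 members. For S2-32 minus S1-32 it was 11.6% and 2 members, and for Direct-78 minus S1-78 14.3% and 3 members.

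The numbers of all genes behind these shares moved by over 1.5 times with single libraries. In S1-10, 121 genes passed, and without mouse 68 of Control-10 0 of 2205 did in edgeR, with 204 at an unadjusted p under 0.05. No member passed then. Without mouse 14, 15, 16 or 18 it was 64 to 70 genes. The 642 genes in S1-32 became 372 without mouse 75 and 36 with the log2 total count as a covariate, and the 35 in S1-57 became 6 to 20 without any of mice 25, 27 to 30 and 81 to 83. In S1-78, 40 genes became 75 without mouse 32 and 20 to 26 without mouse 36, 87, 89 or 90. For S2-32 the 235 genes became 502 without mouse 74 and 121 to 153 without mouse 42, 75, 76 or 78, and for S2-78 the 36 became 22 without mouse 43 or 90. The 141 genes in S3-57 became 84, 55 and 75 without mice 49, 51 and 83, and the 294 in S3-78 became 148 without mouse 55. In Direct-78, 539 genes became 216 without mouse 64 and 242 without mouse 66.

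**Figure D1:**
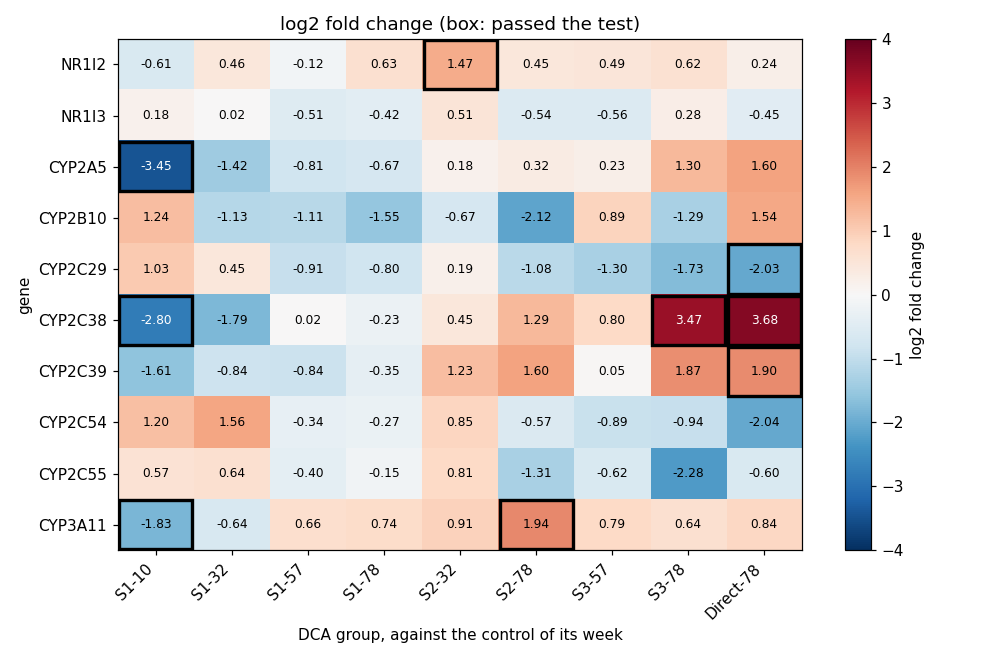
Log2 fold change of each member (down the side) in each DCA group against the control of its week (along the bottom), with the value printed in each cell and a box where the test was passed. Of the 9 boxes, CYP2C38 holds 3, of which the one in S1-10 is lower (-2.80) and those in S3-78 (3.47) and Direct-78 (3.68) are higher.

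The scaling moved the level against which a change is read. In Direct-78 the median log2 fold change of all genes was -0.33 under TMM, 0.069 under RLE scaling and 0.12 when scaled by upper quartiles. In S3-78 it was 0.067, 0.27 and 0.34, in S2-78 0.056, 0.27 and 0.24, in S2-32 0.045, -0.063 and -0.17, and in S1-10 -0.03, -0.11 and -0.16. For S1-32 it was 0.053, -0.072 and -0.24. All 9 changes of members that passed against controls kept their sign under both. The calls over all genes shifted as well. In Direct-78, 126 genes were higher and 413 lower under TMM, 221 and 256 under RLE scaling and 233 and 236 by upper quartiles. In S3-78 they were 129 and 165, 170 and 135, and 187 and 116, and in S2-78 18 and 18, 31 and 12, and 29 and 11. For S1-32 they were 262 and 380, 266 and 439, and 194 and 518. Relative to the median of all genes in TMM, the changes in Direct-78 were 4.01 for CYP2C38, 2.23 for CYP2C39 and -1.70 for CYP2C29. The change of CYP2C38 in S3-78 was 3.40, that of CYP3A11 in S2-78 1.88 and that of NR1I2 in S2-32 1.43 on that scale, and in S1-10 the values were -3.42 for CYP2A5, -2.77 for CYP2C38 and -1.80 for CYP3A11.

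The receptors come first. NR1I2, which encodes PXR, had 380 CPM in the lowest library of S2-32, a median of 552 and 702 in the highest, while Control-32 ran from 103 through a median of 142 to 355. Every library of S2-32 lay above every library of Control-32. Its log2 fold change was 1.47 (SE 0.31, adjusted p = 0.0032, edgeR), and with all 78 libraries the adjusted p was 0.0895. S2-32 was also above S1-32, which had been off DCA for 22 weeks and had 234 to 374 CPM, again without overlap, with a log2 fold change of 1.01 (SE 0.31, adjusted p = 0.0485). That second call ended without any of mice 20 to 24 of S1-32 or mice 39 to 42 of S2-32, with adjusted p of 0.0726 to 0.0972. For the difference between the changes in Direct-78 and S1-10, NR1I2 had an adjusted p of 0.17, which became 0.029 without mouse 66 and 0.0423 without mouse 85. In the other DCA groups, the group means of NR1I2 lay between 269 CPM in S1-32 and 476 CPM in S3-57, all with overlap with the controls. Control-32 had the lowest mean of all 13 groups, at 195 CPM, and 4 of its 6 libraries lay at 103 to 143 CPM.

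NR1I3, which encodes CAR, ranged from 174 to 4578 CPM over the 68 libraries. Its group means lay between 1063 CPM in Control-32 and 2397 CPM in Control-57. All DCA groups overlapped their controls. The log2 fold changes against controls ran from -0.56 in S3-57 to 0.51 in S2-32, and the smallest adjusted p was 0.497. For Direct-78, the 95% confidence interval of the change reached from -1.70 to 0.80, so a change of some size in either direction was not detectable with these 3 libraries. Within groups, NR1I3 varied more than NR1I2, with SDs of 0.98 and 0.53 on the log2 scale. The lowest libraries were mouse 31 of S1-78 (174 CPM), mouse 59 of S3-78 (212 CPM), mouse 75 of Control-32 (244 CPM) and mouse 47 of S2-78 (273 CPM), of which all but mouse 75 are among the libraries with little pericentral marker signal.

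**Figure D2:**
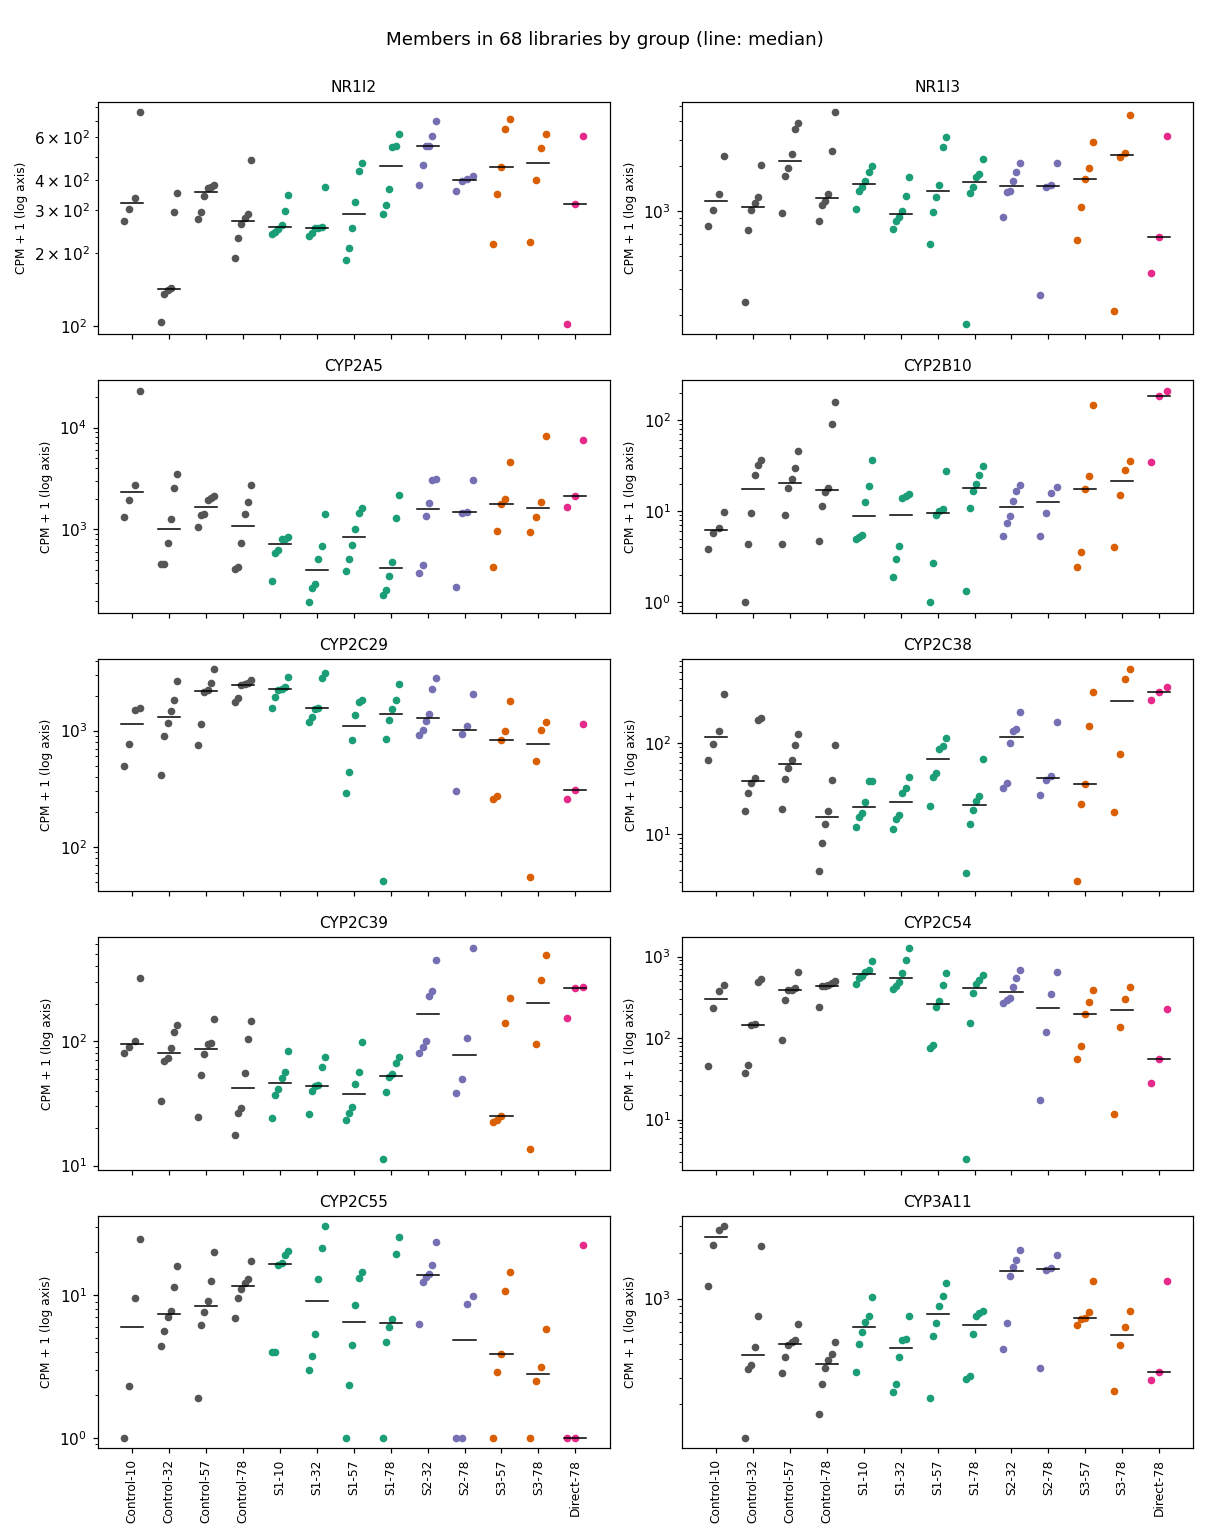
CPM plus 1 on a log axis of the 10 members, 1 panel each, in the 68 libraries by group, with a line at each group's median. Controls are grey, S1 green, S2 purple, S3 orange and Direct-78 pink. All 3 Direct-78 libraries lie between 297 and 416 CPM for CYP2C38, above the Control-78 libraries at 3 to 94 CPM.

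CYP2A5, the mouse enzyme of coumarin and nicotine oxidation, had 22970, 2731, 1963 and 1329 CPM in the 4 libraries of Control-10. In S1-10 it ran from 308 through a median of 713 to 848 CPM. The groups did not overlap, but the highest control value, from mouse 68, was far above the other 3. This gave a log2 fold change of -3.45 (SE 0.75, adjusted p = 0.00489), and it was -1.60 with an adjusted p of 0.451 without mouse 68. With age, CYP2A5 passed as lower in Control-78 than in Control-10 (log2 fold change -2.53, SE 0.73, adjusted p = 0.0323), and without mouse 68 that change was -0.67 (adjusted p = 0.677). These groups overlapped, and leaving out mouse 87, 89 or 90 of Control-78 also ended the call, at adjusted p of 0.0705, 0.0732 and 0.0703. In Direct-78 the libraries had 1657, 2142 and 7614 CPM, against 411 to 2700 CPM in Control-78, with overlap and an adjusted p of 0.113, and without mouse 86 of Control-78 the adjusted p was 0.0485. Direct-78 was above S1-78, where the lowest, median and highest values were 227, 415 and 2169 CPM (log2 fold change 2.26, SE 0.76, adjusted p = 0.0258). These groups overlapped, and without mouse 65 of Direct-78, the highest, the change was 1.44 with an adjusted p of 0.184. Left out in turn, mice 33, 34 and 35 of S1-78 also ended that call, at adjusted p of 0.0563, 0.0576 and 0.0541.

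CYP2B10, the textbook CAR target, was counted at a median of 27 counts per library, and 16 of 68 libraries had under 10 counts. Mouse 73 of Control-32 and mouse 28 of S1-57 had 0 counts, so the gene was not detectable there at this depth. The 3 Direct-78 libraries had 33.7, 181 and 210 CPM, and S1-78 ran from 0.344 through a median of 17.2 to 30.5 CPM. All 3 values of Direct-78 lay above S1-78. On the log2 scale the change was 3.10 (SE 0.98, adjusted p = 0.0184). The call ended without mouse 64 (adjusted p = 0.0639) or mouse 66 (0.0811). Against Control-78, with values of 3.66 to 157 CPM, the groups overlapped, and the log2 fold change of 1.54 had an adjusted p of 0.233. Among DCA groups, the highest single value outside Direct-78 was 145 CPM in mouse 54 of S3-57, whose 4 companions had 1.42 to 23.4 CPM.

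CYP2C38 had the largest change of any member against controls, in Direct-78. In Direct-78 it had 297, 362 and 416 CPM, and in Control-78 it ran from 2.96 through a median of 14.4 to 94.3 CPM. No value of Direct-78 fell into the range of the controls, and 19% of all genes also did not overlap there. The log2 fold change was 3.68 (SE 0.89, adjusted p = 0.00289). In S3-78, 21 weeks after DCA was stopped, the 4 libraries had 16.4, 74.6, 497 and 644 CPM. Of these, 2 lay above all controls and 2 within their range, and the log2 fold change was 3.47 (SE 0.85, adjusted p = 0.00434). Both calls held when any 1 library of the compared groups was left out, and both ended with the log2 total count as a covariate (adjusted p of 0.719 in Direct-78 and 0.0541 in S3-78). S1-10 moved the other way. Its libraries had 10.9 to 37.3 CPM with a median of 18.6, below all 4 of Control-10 at 63.8, 97.4, 134 and 342 CPM. That log2 fold change was -2.80 (SE 0.83, adjusted p = 0.0331), and it was -2.11 with an adjusted p of 0.394 without mouse 68 of Control-10. Leaving out mouse 13, 14, 17 or 18 of S1-10 also ended that call, at adjusted p of 0.0641 to 0.0742, and so did the log2 total count as a covariate (0.0625), thinning to the smallest total (0.142) and leaving out the 4 libraries with pancreas signal (0.0666). The change in Direct-78 differed from that in S1-10 by 6.48 on the log2 scale (SE 1.22, adjusted p = 0.000111). Each change is read against its own control, and the means were 159 CPM in Control-10 and 28.5 CPM in Control-78. Between these controls, which overlapped, the log2 fold change was -2.51 (SE 0.83, adjusted p = 0.0657, edgeR). Direct-78 also lay above S1-78, with 2.75 to 65.8 CPM, without overlap (log2 fold change 3.91, SE 0.89, adjusted p = 0.0025).

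CYP2C39, the neighbour of CYP2C38, encodes a retinoic acid hydroxylase. It had 151, 267 and 273 CPM in Direct-78, above all 6 libraries of Control-78, which ran from 16.5 through a median of 41.4 to 144 CPM. Its log2 fold change was 1.90 (SE 0.71, adjusted p = 0.0437). Leaving out any of 7 of the 9 libraries, mice 64, 65, 66, 85, 87, 89 and 90, ended this call, with adjusted p of 0.0577 to 0.129. It also ended with all panel genes (0.0554), all 78 libraries (0.155), the log2 total count as a covariate (0.896), thinning to the smallest total (0.15) and a fit of the compared groups only (0.0509), and without the 2 libraries least like the mean profile (0.0602). In S3-78 it had 12.7, 94.4, 306 and 489 CPM, and the adjusted p was 0.0515, which became 0.0206, 0.0386 and 0.0219 without mouse 59, mouse 60 and mouse 86. In S2-32 the values ran from 79.7 through a median of 165 to 449 CPM, all above S1-32 at 24.9 to 73.8 CPM. That log2 fold change was 2.07 (SE 0.63, adjusted p = 0.0492), a call that ended without any of mice 19 to 24 of S1-32 or mice 39 to 42 of S2-32, with adjusted p of 0.062 to 0.16. Against S1-78, which had 10.2 to 73.2 CPM, Direct-78 was higher without overlap (log2 fold change 2.25, SE 0.71, adjusted p = 0.0184), and without mouse 64 the adjusted p was 0.0653.

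CYP2C29, an epoxygenase of mouse liver, was lower in Direct-78 than in controls of that week. It had 258, 305 and 1136 CPM in Direct-78 and 1761 to 2706 CPM, median 2486, in Control-78, with no overlap. This gave a log2 fold change of -2.03 (SE 0.72, adjusted p = 0.0342). RLE scaling gave an adjusted p of 0.0534 and scaling by upper quartiles 0.0615. Left out in turn, mice 64, 66 and 85 gave 0.157, 0.162 and 0.0531. The call also ended with the log2 total count as a covariate (0.957), after thinning (0.0532) and without the 2 libraries least like the mean profile (0.155). In S3-78 the libraries had 54.1, 542, 1000 and 1189 CPM, all below Control-78, with a log2 fold change of -1.73 (adjusted p = 0.0567), and the adjusted p was 0.0435 without mouse 60 and 0.0469 without mouse 86. The difference between the changes in Direct-78 and S1-10 was -3.07 (SE 0.95, adjusted p = 0.0106), and S1-10 itself lay above Control-10, at 1563 to 2862 against 495 to 1547 CPM, with an adjusted p of 0.334.

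CYP2C54 followed CYP2C29 from library to library, as given with the correlations. It had 27.03, 54.4 and 224 CPM in Direct-78, below the 240 to 494 CPM of Control-78, and the log2 fold change of -2.04 had an adjusted p of 0.0945. Without mouse 65 it was -3.15 (adjusted p = 0.0332), and against S1-78 the adjusted p of 0.135 became 0.0457. In S1-10 it had 455 to 887 CPM against 44.8 to 448 CPM in Control-10, where the adjusted p was 0.389. Its change in Direct-78 minus that in S1-10 was -3.25 (SE 1.21, adjusted p = 0.0325), which ended without mouse 64, 66, 68 or 71, at adjusted p of 0.0953, 0.104, 0.0803 and 0.0502.

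CYP2C55 was the least counted member, at a median of 15 counts. It had 0 counts in 9 of 68 libraries and under 10 in 25. Its group means lay between 2.11 CPM in S3-78 and 13.3 CPM in S2-32. In S3-78 the 4 values, 0 to 4.79 CPM, lay below Control-78 at 5.92 to 16.5 CPM, with an adjusted p of 0.17. Of the Direct-78 libraries, mouse 65 had 21.6 CPM and the other 2 had 0 counts. The change there was -0.60 (adjusted p = 0.727), and without mouse 65, where both libraries left are at 0, the adjusted p was 0.0343, and it was 0.0377 against S1-78 and 0.0287 for the difference from the change in S1-10.

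CYP3A11, the main PXR target among the CYP3A enzymes of mouse liver, changed with age in the controls. Control-10 had 1216, 2242, 2845 and 2998 CPM, Control-57 ran from 320 through a median of 503 to 674 CPM, and Control-78 from 173 through 370 to 517 CPM. Control-10 lay above both older groups without overlap. On the log2 scale the change was -2.24 (SE 0.49, adjusted p = 0.00567) at week 57, where 1 member and 3.45% of all genes passed. At week 78 it was -2.71 (SE 0.50, adjusted p = 0.000573), where 2 members, CYP3A11 and CYP2A5, and 3.95% of all genes passed. At week 32, 0 members and 1.59% of all genes passed, with 3 members at an unadjusted p under 0.05 and 3 called by DESeq2. Of all genes, 395 had an unadjusted p under 0.05 there and DESeq2 called 159. CYP3A11 had an adjusted p of 0.0505 at week 32, which became 0.0301 without mouse 68 and 0.000734 without mouse 74. At week 32 NR1I2 passed without mouse 74 or 77 (adjusted p of 0.019 and 0.031) and CYP2A5 without mouse 73 (0.0435), and at week 78 CYP2C38 passed without mouse 86 (0.015). The 3 comparisons share Control-10. Over all genes, 35 passed at week 32, 236 without mouse 74 and 5 to 14 without mouse 69, 71, 72, 75, 76 or 78. At week 57, 76 passed, 116 without mouse 68 and 31 to 49 without mouse 69, 71, 72, 82 or 83, and at week 78, 87 passed, and 57, 52 and 53 without mice 68, 71 and 72. Over all genes the median change at week 78 was -0.057 under TMM, -0.2 under RLE scaling and -0.23 by upper quartiles, with 52 genes higher and 35 lower, 38 and 51, and 30 and 52. At week 57 it was -0.044, -0.15 and -0.15, with 53 and 23, 48 and 41, and 36 and 32. At week 32 it was -0.061, 0.00028 and 0.064, with 24 and 11, 43 and 26, and 53 and 24. With only the groups compared, 0 genes passed at week 32, 13 at week 57 and 39 at week 78. CYP3A11 was lower at weeks 57 and 78 under each scaling. The sum over endothelial markers was 212 to 333 CPM in Control-10, 132 to 185 CPM in Control-57 and 133 to 157 CPM in Control-78. That over the listed male-biased liver genes was 3704 to 26270, 28130 to 86700 and 54550 to 97830 CPM. For both sums Control-10 did not overlap the older groups, and their part in the change of CYP3A11 was not tested. With all 78 libraries, which add mice 67 and 70 to Control-10, the adjusted p of CYP3A11 was 0.246 at week 57 and 0.101 at week 78.

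After DCA, CYP3A11 was lower in S1-10, at 326 to 1031 CPM with a median of 648, than in all 4 libraries of Control-10. The log2 fold change was -1.83 (SE 0.49, adjusted p = 0.0206), and without mouse 68 it was -2.05 with an adjusted p of 0.0761. With all 78 libraries it was -1.39 (adjusted p = 0.25). It was higher in S2-78, 46 weeks after DCA was stopped, at 348, 1555, 1600 and 1938 CPM against 173 to 517 CPM in Control-78. There, 3 of the 4 libraries lay above all controls and mouse 47 lay among them. Its log2 fold change was 1.94 (SE 0.49, adjusted p = 0.0191), and the call ended without mouse 43 (0.0641), 44 (0.0763), 87 (0.0504) or 90 (0.0636), with all 78 libraries (0.33) and in a fit of the compared groups only (0.148). The change in Direct-78 minus that in S1-10 was 2.67 (SE 0.71, adjusted p = 0.00351).

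The second set of comparisons asks how mice still on DCA differed from mice of the same age taken off it at week 10. Between S2-32 and S1-32, 3 members passed, where 3.54% of all genes did, and NR1I2, CYP2C39 and CYP3A11 were all higher in S2-32. The 78 genes behind that share became 27 to 51 without any of mice 19 to 24 and 39 to 42. They became 446 with only the groups compared, 147 in DESeq2, 28 after thinning, 15 with the log2 total count as a covariate and 12 with all 78 libraries. Sums over macrophage, lymphocyte and endothelial markers were lower in S2-32 than in S1-32, without overlap. They were 592 to 1070 against 1294 to 1684 CPM, 20.4 to 32.2 against 37.3 to 89.7 CPM and 172.9 to 278.1 against 329.1 to 431.5 CPM. Their part in the changes was not tested. For CYP3A11, S2-32 had 465 to 2080 CPM with a median of 1518 and S1-32 had 239 to 761 CPM, with overlap and a log2 fold change of 1.55 (SE 0.45, adjusted p = 0.0404), a call that ended without any of mice 20 to 24 of S1-32 or mice 39 to 42 of S2-32, with adjusted p of 0.0566 to 0.0989. The highest value of CYP3A11 in S2-32 was that of mouse 41, which had the lowest hepatocyte marker sum of its group, and without it the adjusted p was 0.0989. Between S3-57 and S1-57, 0 members and 0% of all genes passed in edgeR, with 111 genes and 1 member, CYP2B10, at an unadjusted p under 0.05, and DESeq2 called 7 genes and 0 members. Without mouse 28 or 51, 2 genes and 1 gene passed. Between Direct-78 and S1-78, 4 members passed, CYP2A5, CYP2B10, CYP2C38 and CYP2C39, all higher in Direct-78, where 24.5% of all genes passed. Under TMM, RLE scaling and upper quartiles the median change of all genes there was -0.36, -0.054 and 0.0086, with 118 genes higher and 422 lower, 217 and 303, and 230 and 295, and the 4 members were higher under each. Without mouse 64 or 66 the 540 genes that passed became 249 and 232. They became 240 after thinning and 45 with only the groups compared. The sum over 10 hepatocyte markers was 25080 to 32550 CPM in Direct-78, below the 40660 to 73890 CPM of S1-78 without overlap. Its part in these changes was not tested. In the test of the change in Direct-78 minus the change in S1-10, 6 members and 33.8% of all genes passed at the adjusted p alone. Without mouse 68, 452 genes passed in place of 745. There the medians were -0.35, 0.14 and 0.26, with 296 genes higher and 449 lower, 421 and 326, and 441 and 291. CYP2A5 (5.05), CYP2C38, CYP2C39 (3.51) and CYP3A11 had a positive difference and CYP2C29 and CYP2C54 a negative one. Without mouse 68 that of CYP2A5 was 3.20 (adjusted p = 0.0187).

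With the log2 total count as a covariate, 0 members passed in Direct-78, against Control-78, against S1-78 and in the difference from S1-10, and 0 passed in S3-78. Over all genes, edgeR then called 11 in Direct-78, 9 against S1-78, 11 in the difference and 117 in S3-78, and, in the other groups that did not overlap their controls in total count, 36 in S1-32 in place of 642 and 223 in S3-57 in place of 141. The change of CYP2C38 in Direct-78 was then 1.12 (adjusted p = 0.719). After thinning all libraries to 541245 counts, 1 member, CYP2C38, passed in Direct-78, where 232 of 2205 genes did. CYP2C29 then had an adjusted p of 0.0532 and CYP2C39 of 0.15.

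Among the members, likeness across the 68 libraries was described by Pearson's r of log2 CPM after each group's mean was subtracted. The libraries share depth and section make-up, so r is a description. With the log2 total count, r was -0.365 for CYP2A5, -0.349 for CYP2C38 and -0.192 for CYP2C39. It was 0.285 for CYP2C29 and 0.375 for CYP2C54, and the other members lay between -0.0128 and 0.272. CYP2C29 and CYP2C54 were the most alike pair (r = 0.923), followed by CYP2C38 and CYP2C39 (r = 0.842). CYP2C29 and CYP2C38, which lie 58842 bp apart, had r = 0.296. NR1I3 had r = 0.744 with CYP2C29, 0.708 with CYP2C54, 0.643 with CYP2C39 and 0.598 with CYP3A11, while NR1I2 had 0.397 with CYP3A11. CYP2B10 had r between -0.117 and 0.177 with every other member. The part of shared windows in the likeness of CYP2C38 and CYP2C39 was not tested.

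**Figure D3:**
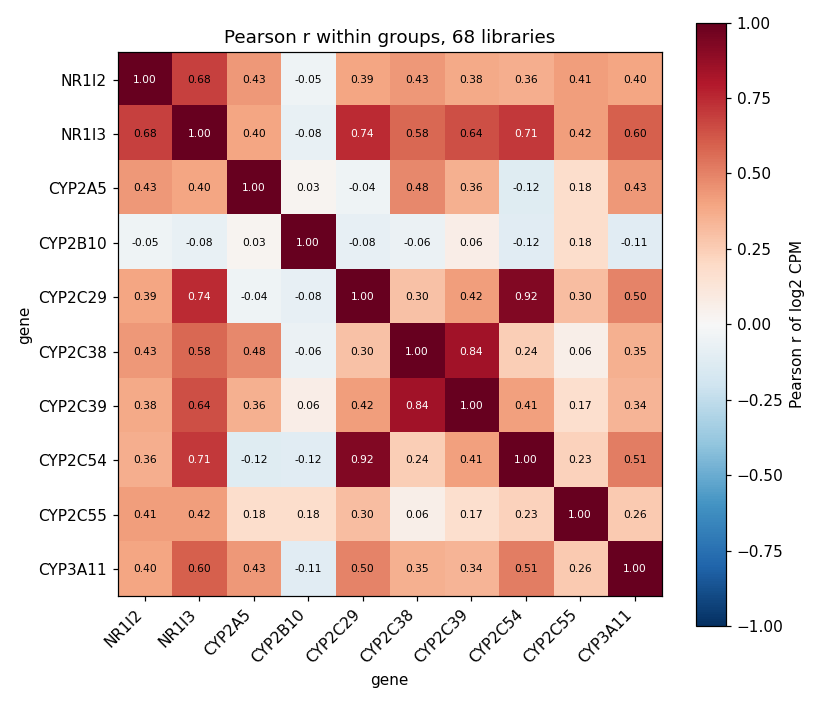
Pearson's r between members, over 68 libraries after group means were subtracted from log2 CPM. The pairs CYP2C29 with CYP2C54 (0.92) and CYP2C38 with CYP2C39 (0.84) stand out, and CYP2B10 lies between -0.12 and 0.18 with all others.

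Of all genes tested, those most like CYP2C29 were CYP2C54, CYP2E1 (r = 0.889) and SLCO2B1 (0.874), and those most like CYP2C54 were CYP2C29, CYP2E1 (0.895) and SLC10A1 (0.88). For CYP2C38 they were CYP2C39, MAT1A (0.664) and NR1I3 (0.578), and for CYP2C39 CYP2C38, MAT1A (0.702) and NR1I3. NR1I3 was closest to DPYS (0.788), CPSF4L (0.783) and HOMER2 (0.777), and NR1I2 to HOMER2 (0.761), NR1I3 (0.68) and CNN3 (0.668). CYP2A5 was closest to CYP2A4 (0.696), EPHX1 (0.673) and ALDH3A2 (0.659), with CYP2A4 a near-identical copy. CYP3A11 was closest to ACAA1A (0.813), ECI1 (0.789) and CREG1 (0.715), CYP2B10 to ELL3 (0.569), CHRNB2 (0.548) and PHPT1 (0.534), and CYP2C55 to AGXT2 (0.619), SLC30A7 (0.552) and TGFBR1 (0.527).

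Markers of the zones of the lobule moved with some of these genes. Of 16 pericentral markers, 9 are on the panel, none of them at 0 in all libraries, with CYP2E1 adding the most CPM to their sum. That sum had r = 0.892 with CYP2C29 and 0.866 with CYP2C54 within groups, 0.649 with NR1I3, 0.544 with CYP3A11, and 0.298 with CYP2C38. The sum of 6 periportal markers also moved with these genes, with r = 0.739 for CYP2C29, 0.816 for CYP2C54, 0.483 for NR1I3, 0.47 for CYP3A11 and 0.193 for CYP2C38. For the sum of 10 hepatocyte markers, r was 0.0204 with CYP2C29, 0.0844 with CYP2C54, -0.127 with NR1I3, -0.0286 with CYP3A11 and -0.000178 with CYP2C38. The pericentral sum was 5545, 8058 and 11690 CPM in Direct-78, below the 18050 to 33400 CPM of Control-78. In S3-78 the pericentral sum was 1944, 11220, 11600 and 21790 CPM, that over hepatocyte markers 33430 to 47740 CPM, below all libraries of Control-78, and that over periportal markers 1082 to 12710 CPM. The sum over 10 hepatocyte markers was 25080 to 32550 CPM in Direct-78 and 48220 to 55390 CPM in Control-78, and that over 6 periportal markers 2322 to 4483 and 8636 to 19720 CPM. None of the 9 pericentral markers passed the test in Direct-78, 2 of 6 periportal markers were lower, ASS1 and CYP2F2, and 1 of 10 hepatocyte markers was lower, FGB. Over all genes, 126 of 2205 were higher there and 413 lower. Left out in turn, mouse 64 ended all 3 of these calls (adjusted p of 0.0727 for ASS1 and for CYP2F2 and 0.0522 for FGB) and mouse 66 those of ASS1 (0.0961) and CYP2F2 (0.0542), while without mouse 86 3 hepatocyte and 2 pericentral markers passed as lower, and without mouse 65 1 pericentral marker did. The part of these sums in the changes of CYP2C29 and CYP2C54 was not tested.

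**Figure D4:**
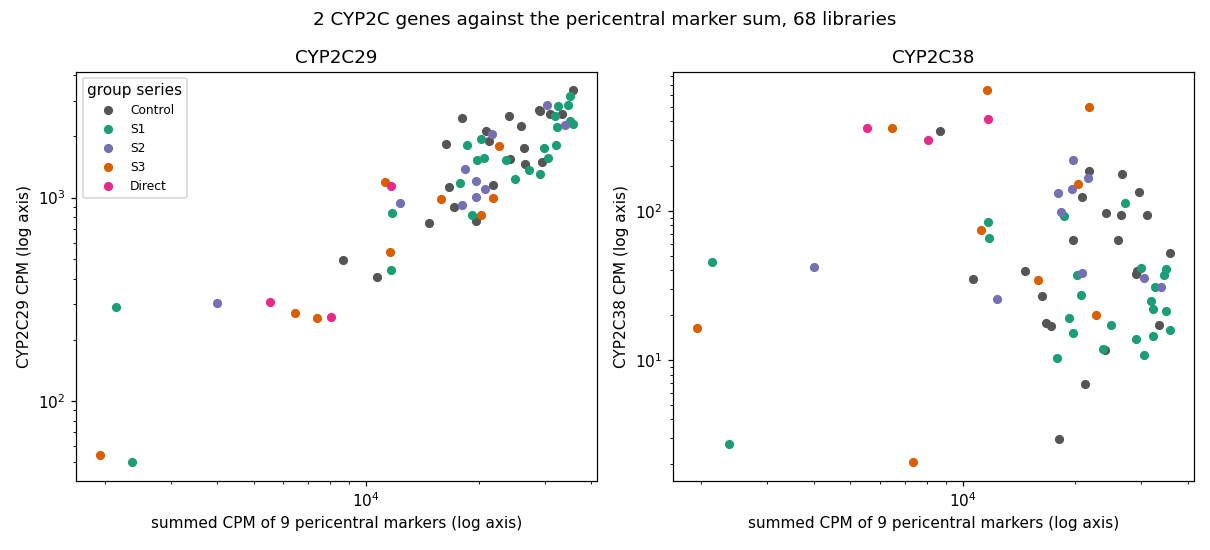
CPM of CYP2C29 (left) and CYP2C38 (right) against the summed CPM of 9 pericentral markers, all on log axes, in 68 libraries coloured by group series. CYP2C29 is low where the sum is low, down to 49.97 CPM in mouse 31 of S1-78 and 54.1 CPM in mouse 59 of S3-78, while the 3 Direct-78 libraries lie at 297 to 416 CPM of CYP2C38 with sums of 5545 to 11690 CPM.

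Genes that work with the receptors were counted next. Of 24 partners and cofactors, 12 were on the panel and tested. In Direct-78, 0 passed as higher and 4 as lower, with a median log2 fold change of -0.68 beside -0.33 for all genes, of which 126 were higher and 413 lower. Without mouse 64 it was 2 that were lower and without mouse 66 1, and without mouse 65 1 was higher. HNF4A, a nuclear receptor of hepatocyte identity, stood at 493 ± 349 CPM there (SD, n = 3) against 2247 ± 865 in controls (n = 6), which is a log2 fold change of -2.19 (SE 0.66, adjusted p = 0.0137). That call ended without mouse 64 (0.0804) or mouse 66 (0.0888). HSP90AA1, a chaperone, was lower in S3-78, at 711 ± 325 (SD, n = 4) against 2944 ± 1057 CPM (n = 6), with a log2 fold change of -2.05 (SE 0.36, adjusted p = 0.000219). EP300, a coactivator, had 0 counts in all 3 libraries of Direct-78 and 12.4 ± 8.77 CPM (SD, n = 6) in Control-78, and it passed as lower, but not without mouse 64 (adjusted p = 0.068) or mouse 66 (0.0552). At the 541245 to 699825 total counts of Direct-78, 12.4 CPM is few counts, and depth and treatment cannot be told apart there. Of the 12 partners and cofactors, 1 was higher and 1 lower in S1-32, 0 and 1 in S2-32, 0 and 1 in S3-57 and 0 and 2 in S3-78. Over all genes it was 262 and 380, 76 and 159, 63 and 78, and 129 and 165. Without mouse 74 of Control-32, 3 were higher in S1-32 and 3 in S2-32. The call in S3-57 ended without mouse 49, 51, 53, 80, 82 or 83. Of 5 tested genes for electron and heme supply to P450 enzymes, none passed against controls in edgeR, while without mouse 73 or mouse 74 of Control-32 1 passed as higher in S2-32. ALAS1 gave the largest share of their summed CPM, which describes the sum only, because levels are not compared between genes.

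Of 37 listed conjugation and transport targets, 26 were on the panel and 25 were tested. In S1-10, 0 were higher and 3 lower, EPHX1, UGDH and GSTA2, with a median of 0.16 beside -0.03 for all genes, of which 24 were higher and 97 lower. UGDH, which makes UDP-glucuronic acid, had 2160 ± 289 CPM (SD, n = 6) in S1-10 and 22090 ± 30740 (n = 4) in Control-10 (log2 fold change -3.35, SE 0.76, adjusted p = 0.00649). Without mouse 68 of Control-10 none of the 3 passed in edgeR, with UGDH at -1.66 (adjusted p = 0.443), EPHX1 at -1.30 (0.339) and GSTA2 at -1.85 (0.454), and GSTA2 also did not pass without mouse 14, 15 or 18 (0.0541 to 0.058). In S1-32, 0 were higher and 5 lower, EPHX1, UGDH, UGT2B35, GSTA2 and FMO5, with a median of -0.06 beside 0.053 for all genes, of which 262 were higher and 380 lower. Without mouse 74 or 77 of Control-32, 5 and 2 of the list were higher there. Left out in turn, mice 22 and 77 ended the call of FMO5 (adjusted p of 0.0553 and 0.0512) and mice 20, 21, 23 and 24 that of GSTA2 (0.0518 to 0.0543). All 5 calls ended with the log2 total count as a covariate (0.115 to 0.399), under which 14 of all genes were higher and 22 lower, those of EPHX1 (0.129) and FMO5 (0.304) also with all 78 libraries, FMO5 with all panel genes (0.0678) and GSTA2 after thinning (0.0718). In S3-78, 0 were higher and 5 lower, with a median of -0.73 beside 0.067 for all genes, of which 129 were higher and 165 lower, and UGT2B5 had a log2 fold change of -3.09 (SE 0.86, adjusted p = 0.0108). Without mouse 55 of S3-78 the adjusted p of UGT2B5 was 0.0595 and 2 of the list passed. In Direct-78, 0 were higher and 7 lower, with a median of -0.77 beside -0.33 for all genes, of which 126 were higher and 413 lower. Of these 7, 5 did not pass under RLE scaling or upper quartiles, UGT1A6A, UGT2B5, UGT2B36, ABCC2 and SLCO2B1, and without mice 64, 66, 85, 89 and 90 in turn the number lower was 1, 2, 3, 3 and 4.

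Of 11 other CYP2 and CYP3 genes on the panel, 7 were tested. CYP2A4, the near-identical copy of CYP2A5, was higher in S3-78, at 1270 ± 1679 CPM (SD, n = 4) against 36.3 ± 26.8 (n = 6), with a log2 fold change of 5.13 (SE 1.28, adjusted p = 0.00501), and in Direct-78 (4.41, SE 1.28, adjusted p = 0.0111). In S3-78 its change was 3.72 with an adjusted p of 0.0556 without mouse 55. CYP2F2 was lower in Direct-78, at 415 ± 91.3 (SD, n = 3) against 2941 ± 939 CPM (n = 6), with a log2 fold change of -2.82 (SE 0.85, adjusted p = 0.0138), and did not pass without mouse 64 (0.0727) or mouse 66 (0.0542). CYP2D9 was lower in S3-78 (log2 fold change -2.03, SE 0.57, adjusted p = 0.0123), and without mouse 55 the adjusted p was 0.0727. CYP2A4 is also 1 of 25 listed female-biased liver genes, of which 5 were tested and 2 passed as higher in Direct-78 and 3 in S3-78, with medians of 4.00 and 3.38. Of 25 male-biased liver genes, 10 were tested, and 5 passed as lower in each of these groups, with medians of -2.34 in Direct-78 and -2.08 in S3-78. Over all genes, 126 were higher and 413 lower in Direct-78, with a median of -0.33, and 129 and 165 in S3-78, with a median of 0.067. Without mouse 55, 1 female-biased gene was higher and 3 male-biased genes lower in S3-78, and without mouse 64, 2 male-biased genes were lower in Direct-78. In S1-32 the female-biased list went the other way, with 0 higher and 2 lower, where 262 of all genes were higher and 380 lower. Without mouse 74 of Control-32, 1 was higher and 1 lower there, and without mouse 75 1 was lower. In S3-57, 1 female-biased gene was higher, and 0 were without mouse 51. SULT3A1, a sulfotransferase on the female-biased list, had 254 ± 478 CPM (SD, n = 4) in S3-78 against 0.711 ± 0.618 (n = 6), with a log2 fold change of 8.30 (SE 1.52, adjusted p = 0.000299), which was 4.28 without mouse 55 (0.042). In S2-78, 1 female-biased gene was higher, CYP4A10, an enzyme of fatty acid oxidation, at 3320 ± 3945 CPM (SD, n = 4) against 2.65 ± 2.98 (n = 6), with a log2 fold change of 10.46 (SE 2.09, adjusted p = 0.00229), and it did not pass with only the groups compared (0.148). The list's median there was 1.81 beside 0.056 for all genes, of which 18 were higher and 18 lower. Among male-biased genes, ELOVL3, a fatty acid elongase, had 0 counts in 2 libraries of Direct-78 and a mean of 2.70 CPM, against 1708 ± 1358 CPM (SD, n = 6) in Control-78, and it passed as lower (adjusted p = 0.00155), but not with the log2 total count as a covariate (0.173). C9, of the complement system, was lower in Direct-78, at 3241 ± 1597 (SD, n = 3) against 30490 ± 18090 CPM (n = 6), and did not pass without mouse 64 (adjusted p = 0.0522) or with the covariate (0.287). MUP3, a major urinary protein, was lower in S3-78, at 1579 ± 1668 (SD, n = 4) against 13630 ± 1643 CPM (n = 6), and did not pass with the covariate (0.0936).

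Markers of other cell types were counted in the same way in the 5 groups where a member passed against controls, and their shares are read beside those of all genes. In Direct-78, where 126 of 2205 genes were higher and 413 lower, 1 of 3 cholangiocyte markers was higher and 1 lower, 1 of 6 macrophage markers, 1 of 4 lymphocyte markers, 1 of 5 endothelial markers and 1 of 4 erythroid markers were lower, and 0 of 9 stellate and fibroblast markers and 0 of 6 pancreas acinar markers passed in edgeR. Except for the erythroid marker, ALAS2, each of these calls ended without mouse 64, at adjusted p of 0.332 for KRT19, 0.116 for SPP1, 0.18 for CD68, 0.118 for CD4 and 0.127 for ENG. Other libraries that ended them, at adjusted p of 0.0545 to 0.138, were mice 66, 85, 87, 88 and 89 for KRT19, mice 66 and 90 for SPP1, mice 65, 85 and 90 for CD68, mice 65 and 66 for CD4 and mouse 65 for ENG, and without mouse 65, 2 endothelial markers were higher. In S1-10, where 24 genes were higher and 97 lower, 2 of 9 stellate and fibroblast markers were lower, 1 of 10 hepatocyte markers and 1 of 4 lymphocyte markers were higher, and 0 of 9 pericentral and 0 of 6 periportal markers passed. The sum over 10 hepatocyte markers was 52840 to 80730 CPM in S1-10, above the 10460 to 48670 CPM of Control-10 without overlap. All 4 of these marker calls ended without mouse 68 of Control-10, at adjusted p of 0.115 for COL1A1, 0.37 for TIMP1, 0.138 for HP and 0.163 for CD4. COL1A1 also did not pass without any of mice 13 to 18, 69 and 71 (0.0518 to 0.0795), TIMP1 without mouse 13, 14, 16, 17, 18 or 71 (0.0631 to 0.102) and HP without mouse 15 (0.0884), and without mouse 69, 2 lymphocyte markers were higher. In S2-32, where 76 genes were higher and 159 lower and NR1I2 was higher, 2 of 9 stellate and fibroblast markers, COL1A1 and COL3A1, 1 of 6 macrophage markers, CD68, and 1 of 9 pericentral markers, LECT2, were higher. COL1A1, which added the most CPM to the sum of its list, had a mean of 326 CPM against 49.2 CPM in Control-32 (log2 fold change 2.72, SE 0.59, adjusted p = 0.00335). The sum of its list was 443 to 1156 CPM in S2-32 and 145 to 366 CPM in Control-32, without overlap. COL3A1 did not pass without mouse 78 (adjusted p = 0.0751), with all 78 libraries (0.104) or after thinning (0.205). CD68 did not pass without mouse 40, 42, 73, 76 or 78 (0.0504 to 0.0948), with all 78 libraries (0.183), after thinning (0.0531) or with only the groups compared (0.178). LECT2 did not pass without mouse 37, 40, 76 or 78 (0.0504 to 0.0716), with all 78 libraries (0.0855), with the log2 total count as a covariate (0.0534) or with only the groups compared (0.0535). Without mouse 73 and mouse 74 in turn, 2 and 3 pericentral markers were higher. In S3-78, where 129 genes were higher and 165 lower and CYP2C38 was higher, 1 of 9 pericentral markers, CAR3 (log2 fold change -2.61, SE 0.78, adjusted p = 0.0186), 1 of 6 periportal markers, CYP2F2 (-2.33, SE 0.73, adjusted p = 0.0239), and 1 of 4 erythroid markers, ALAS2 (-3.04, SE 0.62, adjusted p = 0.000785), were lower. CAR3 did not pass without mouse 55 (0.0731) or 59 (0.0665), with the covariate (0.104) or with only the groups compared (0.061), nor CYP2F2 without mouse 55 (0.0637) or 59 (0.1) or with the covariate (0.333). In S2-78, where 18 genes were higher and 18 lower, 3 of 6 pancreas acinar markers passed as higher, CELA3B, CTRB1 and CEL. Their list summed to 14910 CPM in mouse 47 and to 6.37, 27.2 and 30.02 CPM in the other 3 libraries, against 5.73 to 27.5 CPM in Control-78, and without mouse 47 none of the 3 passed (adjusted p of 0.915, 0.731 and 0.819). CTRB1 also did not pass without any 1 of the 6 Control-78 libraries (0.0613 to 0.0855), nor CEL without mouse 87, 88 or 90 (0.0504 to 0.0594). Mouse 47 is also the library of S2-78 with the lowest CYP3A11, at 348 CPM. COL1A1 and COL1A2, 2 of 9 stellate and fibroblast markers, were higher in S2-78, and COL1A2 did not pass without mouse 43 (adjusted p = 0.208), mouse 44 (0.0608) or any 1 of the 6 Control-78 libraries (0.0506 to 0.0878). The part of these markers in the changes of the members was not tested.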

How the data were processed

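Gene expression had been measured with TempO-Seq in liver sections of 78 mice, 1 library each. The raw counts deposited by the authors cover 2755 genes, and the submitters' processing notes name Bowtie, Partek 10.0.22.0524, DESeq2 and the build mm10. The authors' normalized and filtered tables hold a signal, checked to be the count plus 1 over 1 factor per library, to a relative deviation of at most 5.43e-06, in all but 3 values. They served to pick 68 libraries and 2205 genes. No library pair within a group (151 pairs) was a copy.

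Raw counts were fitted in R 4.3.3 with edgeR 4.0.16 (TMM, glmQLFit, glmQLFTest, 13 groups, 2-sided, Benjamini-Hochberg within a comparison), with log2 CPM at a prior count of 2. The steps were tested on simulated data. Intervals are 95% intervals of the fit. The members and gene lists were chosen with earlier results of these data known. Named were all members, up to 3 genes a list with the largest change among those that passed against controls (otherwise the one with the highest mean CPM), and for each member the 3 genes with the highest correlation. Of the marker genes so named, only those that passed in a group where a member passed are described. Other listed genes were named after their values were seen.

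Alternatives were RLE and upper-quartile factors, all panel genes, the genes of filterByExpr, all 78 libraries, DESeq2 1.42.0, only the compared groups, log2 total count as a covariate, thinning to 541245 counts, the adjusted p alone, and each library left out in turn. Chosen after seeing the data were leaving out 2 libraries under a squared Spearman correlation of 0.7 with the mean profile, and 4 libraries over 1000 CPM of pancreas markers. The limit of 0.7 is the one the paper gives for excluding samples. As calculated here, the kept mice 66 of Direct-78 (0.641) and 75 of Control-32 (0.628) lay below it. Mouse 70 of Control-10 (0.752), which the authors removed, lay above it.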

Additional observations from a re-analysis of the deposited data

Results flagged for a closer look

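In 120 combinations of a member and a group of 4 to 6 libraries, the highest or lowest library was compared with the rest by Dixon's ratio of log2 CPM, and in 11 of these combinations a library stood apart, 4 times mouse 31 of S1-78. Chance alone sets apart a library in about 1 in 20 groups. NR1I2 in mouse 19 of S1-32 was 373.9 CPM, against 233.6 to 256.2 CPM in the other 5 libraries. NR1I3 in mouse 31 of S1-78 was 174.4 CPM, against 1311 to 2227 CPM in the other 5 libraries. CYP2A5 in mouse 15 of S1-10 was 308.2 CPM, against 590.6 to 847.8 CPM in the other 5 libraries. CYP2B10 in mouse 34 of S1-78 was 0.3443 CPM, against 9.745 to 30.51 CPM in the other 5 libraries. CYP2C29 in mouse 31 of S1-78 was 49.97 CPM, against 839.2 to 2507 CPM in the other 5 libraries. CYP2C39 in mouse 68 of Control-10 was 319.2 CPM, against 79.26 to 99.08 CPM in the other 3 libraries. CYP2C39 in mouse 31 of S1-78 was 10.24 CPM, against 38.04 to 73.18 CPM in the other 5 libraries. CYP2C54 in mouse 86 of Control-78 was 240.3 CPM, against 429.3 to 494.3 CPM in the other 5 libraries. CYP2C54 in mouse 31 of S1-78 was 2.249 CPM, against 151.1 to 591.2 CPM in the other 5 libraries. CYP3A11 in mouse 47 of S2-78 was 348.1 CPM, against 1555 to 1938 CPM in the other 3 libraries. CYP3A11 in mouse 50 of S3-57 was 1299 CPM, against 671.5 to 809 CPM in the other 4 libraries.

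The change in Direct-78 differed from the change in S1-10 in an edgeR test of the difference itself for 6 members. On the log2 scale the difference was 5.05 for CYP2A5, -3.07 for CYP2C29, 6.48 for CYP2C38, 3.51 for CYP2C39, -3.25 for CYP2C54 and 2.67 for CYP3A11. Age, depth and length of exposure cannot be told apart in this difference.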

How the results depend on the processing

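Of 25 calls of members in the 16 comparisons, 1 was ended by none of 12 other settings (CYP2A5 in S1-10) and 11 were not ended by leaving out any 1 library of the groups compared, which was 9 to 19 libraries a call. That call of CYP2A5 ended without mouse 68 of Control-10 (adjusted p = 0.451). Of the 25, 0 were ended by neither. The call rule by adjusted p alone, 1 of the 12 settings, can begin a call but not end it, and it changed none of the 160 member values. Depth limits Direct-78, whose 3 libraries hold the smallest totals. No paired analysis was possible because the mice of different groups are not matched. The causes of the changes listed here were not tested. Numbers of members are listed where they moved by over 1.5 times, and the numbers of all genes moved as well. With RLE factors, 305 of all genes passed in S3-78 in place of 294. It was 69 in place of 35 in Control-32 minus Control-10 and 89 in place of 76 in Control-57 minus Control-10. By upper quartiles, 712 passed in S1-32 in place of 642 and 303 in S3-78. In Control-32 minus Control-10 it was 77. Numbers of all genes with 1 library left out stand with each comparison above. All calls that ended or began with the sign kept follow with their adjusted p, and the call of CYP2C54 in Direct-78 change minus S1-10 change ended under the covariate with the other sign.

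With RLE factors, the number of members that passed was 2 in S3-78, 3 in Control-32 minus Control-10 and 2 in Control-57 minus Control-10, and the log2 fold change had the other sign for NR1I3 -0.01196 in S1-32, CYP2C55 -0.19 in Control-57 minus Control-10, NR1I3 0.18 in Direct-78 minus S1-78. With upper-quartile factors, the number of members that passed was 1 in S1-32, 2 in S3-78 and 2 in Control-32 minus Control-10, and the log2 fold change had the other sign for NR1I3 -0.00812 in S1-10, NR1I3 -0.17 in S1-32, CYP2C55 -0.20 in Control-57 minus Control-10, NR1I3 0.25 in Direct-78 minus S1-78. With all panel genes, the number of members that passed was 0 in S2-32 minus S1-32. Of 2755 genes, 50 passed there in place of 78 of 2205. With the genes of filterByExpr, the number of members that passed was 1 in S2-32 minus S1-32. Of 2697 genes, 56 passed there. With all 78 libraries, 68 of all genes passed in S2-32 in place of 235 and 14 in S2-78 in place of 36. It was 255 in S3-78 in place of 294 and 12 in S2-32 minus S1-32 in place of 78. In Control-57 and Control-78 minus Control-10 it was 24 in place of 76 and 38 in place of 87. Under the covariate, 85 passed in Control-32 minus Control-10 in place of 35, and 87 in Control-78 minus Control-10 in both fits. With all 78 libraries, the number of members that passed was 0 in S2-32, 0 in S2-78, 2 in S3-78, 0 in Control-57 minus Control-10, 0 in Control-78 minus Control-10 and 0 in S2-32 minus S1-32, and the log2 fold change had the other sign for NR1I3 -0.02347 in S1-32, CYP2A5 -0.03905 and CYP2C39 -0.22 in S3-57, NR1I3 -0.34 in S3-78, NR1I2 -0.23 in Direct-78, CYP2C54 0.27 and NR1I3 0.11 in Control-32 minus Control-10, NR1I2 0.08033 in Control-57 minus Control-10, CYP3A11 -0.15 in S3-57 minus S1-57, CYP2C55 0.01123 and CYP3A11 -0.58 in Direct-78 minus S1-78. With the log2 total count as a covariate, the number of members that passed was 0 in S3-78, 0 in Direct-78, 2 in Control-32 minus Control-10, 1 in Control-78 minus Control-10, 0 in S2-32 minus S1-32, 0 in Direct-78 minus S1-78 and 0 in Direct-78 change minus S1-10 change, and the log2 fold change had the other sign for CYP2C29 -0.22 and CYP2C55 -0.17 and NR1I3 -0.13 in S1-32, CYP2C38 -0.44 in S1-57, CYP2C54 0.27 and CYP2C55 0.0276 in S1-78, CYP2C29 -0.08469 in S2-32, CYP2A5 -0.28 and CYP2C54 1.01 in S2-78, CYP2A5 -0.80 and CYP2C38 -0.60 and CYP2C39 -0.63 and CYP2C54 0.16 and CYP2C55 0.19 in S3-57, CYP2C54 0.61 in S3-78, CYP2A5 -0.63 and CYP2C54 1.33 and CYP2C55 1.33 in Direct-78, CYP2C54 -0.30 and CYP2C55 -0.85 in Control-57 minus Control-10, CYP2C54 -0.38 and CYP2C55 -0.52 in Control-78 minus Control-10, CYP2C29 0.14 and CYP2C54 0.04671 in S2-32 minus S1-32, CYP2C38 -0.17 and CYP2C54 0.18 and CYP2C55 0.28 and NR1I3 0.0698 in S3-57 minus S1-57, CYP2C29 0.30 and CYP2C54 1.05 and CYP2C55 1.30 and NR1I3 0.32 in Direct-78 minus S1-78, CYP2C54 0.02155 and CYP2C55 1.02 in Direct-78 change minus S1-10 change. After thinning, the number of members that passed was 1 in Direct-78 and 0 in S2-32 minus S1-32, and the log2 fold change had the other sign for NR1I3 -0.006173 in S1-10, CYP2C55 0.44 in S1-57, CYP2C55 0.29 in S1-78, CYP2C55 0.20 in Control-32 minus Control-10, CYP2C55 -0.11 in Control-57 minus Control-10, CYP2C55 -0.27 in S2-32 minus S1-32, NR1I3 0.11 in Direct-78 minus S1-78. With only the groups compared, the number of members that passed was 1 in S1-32, 0 in S2-78, 1 in Control-78 minus Control-10 and 2 in Direct-78 minus S1-78, and the log2 fold change had the other sign for NR1I3 -0.009358 in S1-32, CYP2C38 -0.0235 in S1-57, CYP2C55 -0.04742 in Control-57 minus Control-10. In DESeq2, the number of members that passed was 3 in S1-32, 3 in S3-78, 3 in Control-32 minus Control-10, 2 in Control-57 minus Control-10 and 4 in Control-78 minus Control-10, and the log2 fold change had the other sign for NR1I3 -0.01191 in S1-32, CYP2C55 -0.19 in Control-57 minus Control-10, NR1I3 0.18 in Direct-78 minus S1-78. Without the libraries under a squared Spearman correlation of 0.7, the number of members that passed was 2 in S3-78 and 1 in Direct-78, and the log2 fold change had the other sign for NR1I3 -0.21 in S1-32, CYP2C38 -0.02353 in S1-57, CYP2C55 0.006575 and NR1I3 0.02479 in Direct-78, CYP2C54 0.001042 and CYP2C55 0.04772 in Control-32 minus Control-10, CYP2C55 0.18 and NR1I2 0.09456 and NR1I3 0.46 in Direct-78 minus S1-78, CYP2B10 -0.05031 in Direct-78 change minus S1-10 change. Without the libraries with pancreas signal, the number of members that passed was 1 in S1-32, and the log2 fold change had the other sign for NR1I3 -0.16 in S1-32, CYP2C55 0.009982 in S1-78, NR1I3 0.03944 in Direct-78 minus S1-78. With each library left out in turn, the number of members that passed ran from 0 to 3 in S1-10, 0 to 1 in S1-32, 1 to 2 in S2-32, 0 to 1 in S2-78, 1 to 3 in S3-78, 1 to 4 in Direct-78, 0 to 2 in Control-32 minus Control-10, 1 to 3 in Control-78 minus Control-10, 0 to 3 in S2-32 minus S1-32, 2 to 5 in Direct-78 minus S1-78. The log2 fold change crossed 0 for NR1I3 -0.002395 to 0.58 in S1-10, CYP3A11 -0.87 to 0.15 in S1-32, NR1I3 -0.21 to 0.27 in S1-32, CYP2C38 -0.22 to 0.31 in S1-57, CYP2C38 -0.86 to 0.64 in S1-78, CYP2C39 -0.60 to 0.08353 in S1-78, CYP2C55 -0.68 to 0.08267 in S1-78, CYP2A5 -0.08958 to 0.63 in S2-32, CYP2C29 -0.04906 to 0.47 in S2-32, CYP2A5 -0.26 to 0.71 in S2-78, CYP2A5 -0.37 to 0.47 in S3-57, CYP2B10 -0.94 to 1.29 in S3-57, CYP2C38 -0.32 to 1.09 in S3-57, CYP2C39 -0.67 to 0.31 in S3-57, NR1I3 -0.21 to 0.70 in S3-78, CYP2C55 -7.61 to 0.01656 in Direct-78, CYP3A11 -0.03118 to 1.22 in Direct-78, NR1I2 -0.25 to 0.71 in Direct-78. It also crossed 0 for NR1I3 -1.67 to 0.08274 in Direct-78, CYP2C54 -0.68 to 0.09522 in Control-32 minus Control-10, CYP2C55 -0.54 to 1.16 in Control-32 minus Control-10, NR1I3 -0.67 to 0.03974 in Control-32 minus Control-10, CYP2C55 -0.44 to 1.34 in Control-57 minus Control-10, NR1I2 -0.46 to 0.16 in Control-57 minus Control-10, CYP2C55 -0.0499 to 1.66 in Control-78 minus Control-10, CYP2C55 -0.0454 to 0.68 in S2-32 minus S1-32, CYP2C38 -0.34 to 1.07 in S3-57 minus S1-57, CYP2C55 -0.87 to 0.14 in S3-57 minus S1-57, CYP3A11 -0.09797 to 0.32 in S3-57 minus S1-57, NR1I3 -0.36 to 0.22 in S3-57 minus S1-57, CYP2C55 -7.43 to 0.18 in Direct-78 minus S1-78, CYP3A11 -0.75 to 0.49 in Direct-78 minus S1-78, NR1I2 -0.87 to 0.09371 in Direct-78 minus S1-78, NR1I3 -1.23 to 0.47 in Direct-78 minus S1-78, CYP2B10 -0.03274 to 1.24 in Direct-78 change minus S1-10 change. 

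Values that follow are adjusted p. Under RLE factors, calls ended for CYP2C29 0.0534 in Direct-78, and calls began for CYP2C39 0.0353 in S3-78, CYP2A5 0.0442 and CYP3A11 0.0359 and NR1I2 0.0363 in Control-32 minus Control-10, CYP2A5 0.0466 in Control-57 minus Control-10, CYP2C38 0.0481 in Control-78 minus Control-10, NR1I2 0.0257 in Direct-78 change minus S1-10 change. Under upper-quartile factors, calls ended for CYP2C29 0.0615 in Direct-78, and calls began for CYP2C38 0.0417 in S1-32, CYP2C39 0.0303 in S3-78, CYP3A11 0.0357 and NR1I2 0.0412 in Control-32 minus Control-10, NR1I2 0.0158 in Direct-78 change minus S1-10 change. Under all panel genes, calls ended for CYP2C39 0.0554 in Direct-78, CYP2C39 0.0673 and CYP3A11 0.0673 and NR1I2 0.0832 in S2-32 minus S1-32. Under the genes of filterByExpr, calls ended for CYP2C39 0.0566 and NR1I2 0.0582 in S2-32 minus S1-32. Under all 78 libraries, calls ended for CYP3A11 0.25 in S1-10, NR1I2 0.0895 in S2-32, CYP3A11 0.33 in S2-78, CYP2C39 0.155 in Direct-78, CYP3A11 0.246 in Control-57 minus Control-10, CYP2A5 0.148 and CYP3A11 0.101 in Control-78 minus Control-10, CYP2C39 0.295 and CYP3A11 0.46 and NR1I2 0.459 in S2-32 minus S1-32, CYP2A5 0.0883 and CYP2C39 0.0789 in Direct-78 minus S1-78, CYP3A11 0.237 in Direct-78 change minus S1-10 change, and calls began for CYP2C29 0.049 in S3-78, CYP2C54 0.0189 in Direct-78, CYP2C54 0.0356 in Direct-78 minus S1-78. Under the covariate, calls ended for CYP2C38 0.0625 in S1-10, CYP2C38 0.0541 in S3-78, CYP2C29 0.957 and CYP2C38 0.719 and CYP2C39 0.896 in Direct-78, CYP2A5 0.239 in Control-78 minus Control-10, CYP2C39 0.281 and CYP3A11 0.119 and NR1I2 0.111 in S2-32 minus S1-32, CYP2A5 0.894 and CYP2B10 0.356 and CYP2C38 0.614 and CYP2C39 0.761 in Direct-78 minus S1-78, CYP2A5 0.493 and CYP2C29 0.666 and CYP2C38 0.285 and CYP2C39 0.59 and CYP3A11 0.164 in Direct-78 change minus S1-10 change, and calls began for CYP3A11 0.0405 and NR1I2 0.0439 in Control-32 minus Control-10. Under thinning, calls ended for CYP2C38 0.142 in S1-10, CYP2C29 0.0532 and CYP2C39 0.15 in Direct-78, CYP2C39 0.094 and CYP3A11 0.0545 and NR1I2 0.157 in S2-32 minus S1-32, CYP2C54 0.06 in Direct-78 change minus S1-10 change. Under only the groups compared, calls ended for CYP3A11 0.148 in S2-78, CYP2C39 0.0509 in Direct-78, CYP2A5 0.142 in Control-78 minus Control-10, CYP2A5 0.0968 and CYP2B10 0.066 in Direct-78 minus S1-78, and calls began for CYP2C39 0.0486 in S1-10, CYP2C38 0.0322 in S1-32, CYP2C54 0.0458 in Direct-78, CYP2C38 0.00577 in S2-32 minus S1-32. Under DESeq2, calls began for CYP2A5 0.0474 and CYP2C38 0.0257 and CYP2C54 0.0324 in S1-32, CYP2C29 0.0203 and CYP2C39 0.0186 in S3-78, CYP2A5 0.0474 in Direct-78, CYP2A5 0.0139 and CYP3A11 0.0101 and NR1I2 0.0163 in Control-32 minus Control-10, CYP2A5 0.0158 in Control-57 minus Control-10, CYP2B10 0.0254 and CYP2C38 0.0153 in Control-78 minus Control-10, CYP2C38 0.0234 in S2-32 minus S1-32, NR1I2 0.0211 in Direct-78 change minus S1-10 change. Under the Spearman limit, calls ended for CYP2C29 0.155 and CYP2C39 0.0602 in Direct-78, CYP2B10 0.0772 in Direct-78 minus S1-78, CYP2C54 0.096 in Direct-78 change minus S1-10 change, and calls began for CYP2C29 0.0446 in S3-78, NR1I2 0.0321 in Direct-78 change minus S1-10 change. Under the pancreas limit, calls ended for CYP2C38 0.0666 in S1-10, CYP2C39 0.063 in S2-32 minus S1-32, and calls began for CYP2A5 0.0321 in S1-32.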
